A study of Mus musculus with 9 samples.

Results

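Myelin is the stack of glial membrane that insulates an axon. Oligodendrocytes make it in the central nervous system and Schwann cells make it in peripheral nerve, and the trigeminal root passes from one kind to the other where it enters the brainstem. Some myelin proteins serve both kinds of glia, whereas others belong mainly to one of them. The 8 genes Mbp, Pmp22, Mag, Mog, Mobp, Mal, Prx and Cldn11, which encode proteins of myelin, were followed here among the 21536 genes of a trigeminal ganglion data set. They were listed by name as known myelin genes, and all 8 were measured.

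The data are Dropseq counts from 9 libraries of dissociated trigeminal ganglia. The mice were wild type and of the FVB/N strain, with ages of 3 to 6 weeks in the labels and a narrower range for these animals in the methods, and several animals of both sexes were pooled for each library. Neurons were enriched on a density gradient and by a kit that removes glia and other non-neuronal cells, so the glia described here are those that stayed behind. The counts are unique transcripts (UMIs) per gene and cell barcode, with at least 1000 UMIs for each of 6997 barcodes and a median of 2031. No barcode carries the name of its library, so all were treated as 1 pooled sample with no replicates, and no test between groups of barcodes was made. Of the barcodes, 6464 had between 200 and 8500 genes. A barcode sequence occurred in 2 columns of the table in 6 cases, and of these 12 columns 11 were neurons and 0 were glial.

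Glial barcodes were those with a UMI of Sox10, Fabp7, Opalin, Ermn, Ncmap or Egfl8 and with at most 2 of the neuronal genes Tubb3, Scn9a, Snap25, Nefl, Nefm and Uchl1, and there were 369 of them. Opalin and Ermn are oligodendrocyte genes, and the 199 barcodes with a UMI of either but none of Ncmap or Egfl8 are called central (median 1883 UMIs). Ncmap is a gene of myelinating Schwann cells, and the 95 barcodes with Ncmap or Egfl8 but neither central marker are called peripheral (median 1408 UMIs). Only 3 barcodes had markers of both kinds. A further 18 had at least 2 UMIs of Fabp7, a lipid-binding protein of immature and satellite glia, without any of these markers (median 1172 UMIs). The remaining 54 glial barcodes were held by a UMI of Sox10 or a single UMI of Fabp7 (median 1568 UMIs). Neurons were the 4291 barcodes with at least 3 of the neuronal genes (median 2953 UMIs). None of the 8 myelin genes took part in these choices.

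Levels are given as UMIs per 1000000 UMIs of a group (CPM) with exact Poisson 95% intervals. Shares of barcodes with at least 1 UMI carry exact Clopper-Pearson 95% intervals, and both cover counting error only. For a count of 0 the share that 3 barcodes would make is given, beside the Clopper-Pearson upper limit. Because a deeper barcode shows more genes, a share expected after each barcode is thinned to 1000 UMIs is given where depth differed. A ratio against a group with 0 UMIs was computed against 3 UMIs over that group and is a lower bound. A gene is counted as higher in a group when its CPM was at least 4-fold that of the other group, among genes with at least 20 UMIs in both together.

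The labels central and peripheral were checked against other known genes of the cells. Of 24 further oligodendrocyte genes, 21 were at least 4-fold higher in central and 0 in peripheral barcodes, with a median log2 ratio of 3.98 against 0.17 over all 5011 genes compared. Trf, the iron carrier transferrin, stood at 3465 CPM in central and 12.1 CPM in peripheral barcodes, and the lipocalin Apod at 5541 and 72.5 CPM. The tetraspanin Tspan2 was at 2775 and 12.1 CPM. Of 13 Schwann cell genes with enough UMIs, 10 were at least 4-fold higher in peripheral barcodes and 2, the gap junction gene Gjb1 and the collagen gene Col9a3, in central ones. The tight junction gene Cldn19 was at 417 CPM in peripheral and 2.03 CPM in central barcodes. Drp2, a partner of periaxin at the Schwann cell surface, was at 266 CPM in peripheral barcodes and at 0 UMIs in central ones.

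Several other kinds of cell were less well separated from the peripheral group, whereas mural markers went the other way. Mural markers summed to 387 CPM in 5.03% of central barcodes and to 54.3 CPM in 8.42% of peripheral ones. All of the central sum was Rgs5, with 190 UMIs in central and 1 UMI in peripheral barcodes. All 4 endothelial genes compared were at least 4-fold higher in peripheral than in central barcodes, as were all 3 red blood cell genes. The summed level of the 6 endothelial markers was 1196 CPM in peripheral and 22.4 CPM in central barcodes, and that of the red blood cell markers was 628 and 48.8 CPM. Endothelial markers were seen in 11.6% of peripheral and 2.01% of central barcodes, and red blood cell markers in 23.2% and 10.1%, so both sums came from a minority of barcodes. Fibroblast markers summed to 918 CPM in 61.1% of peripheral barcodes and to 30.5 CPM in 5.03% of central ones. Nearly all of the peripheral sum was the collagen gene Col1a2, at 876 CPM against 12.2 CPM in central barcodes, while Dcn had 1 UMI and Lum 0 UMIs in peripheral barcodes. Satellite glia markers summed to 9704 CPM in peripheral and 1565 CPM in central barcodes, in 89.5% and 85.9% of barcodes, but most of the peripheral sum was Sparc, at 7325 and 140 CPM. Sparc and Apoe of this list were at least 4-fold higher in peripheral barcodes, Kcnj10 was higher in central ones (311 against 12.1 CPM), and Glul and Dbi differed by less than 4-fold. The same list summed to 12282 CPM in endothelial barcodes, so its sum is not particular to satellite glia. The ratios are also given without barcodes that held endothelial and red blood cell markers, or fibroblast markers. The part of the satellite and mural markers was not tested.

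The myelin genes fell into a central set, a peripheral set and a shared set. Mag, Mog, Mobp and Cldn11 were at least 4-fold higher in central than in peripheral barcodes, which is 4 of 8 against a background of 10.4% of all genes. Pmp22 and Prx were at least 4-fold higher in peripheral barcodes, which is 2 of 8 against 6.59%. Mbp and Mal differed by less than 4-fold and were seen in most barcodes of both groups. None of these calls changed when barcodes with a UMI of an endothelial or red blood cell marker were left out, which kept 177 central and 63 peripheral barcodes. Without barcodes that had a UMI of a fibroblast marker, which kept 189 central and 37 peripheral barcodes, the count of genes higher in central barcodes was 6, with Mbp (log2 ratio 2.49) and Mal (2.89) added, and Pmp22 (-5.11) and Prx (-6.67) remained higher in peripheral ones. The 37 of 95 peripheral barcodes that were kept also had less of the peripheral myelin genes, with log2 ratios over neurons of 3.06 for Pmp22 (4.79 in all 95), 7.85 for Prx (9.43), 3.78 for Mbp (5.41) and 3.59 for Mal (4.83).

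**Figure D1:**
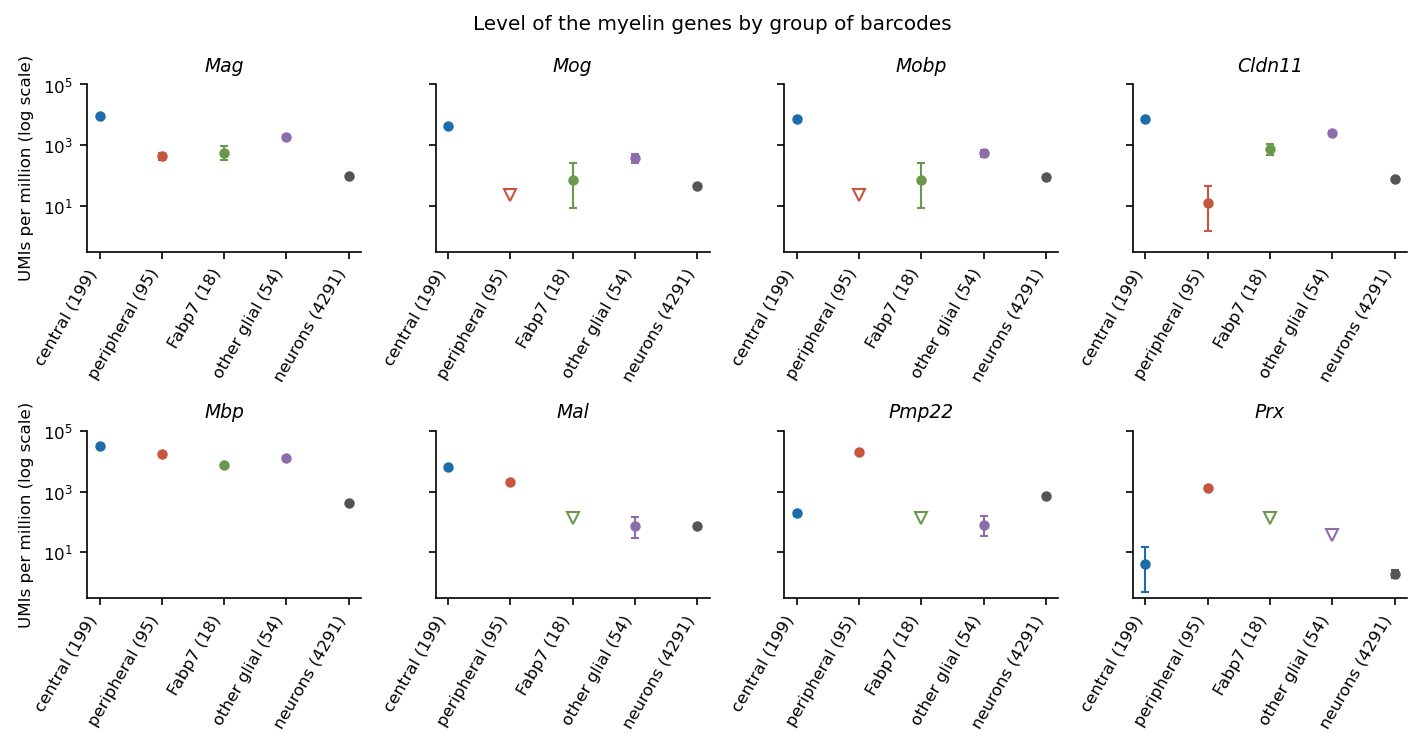
Level of each myelin gene in 5 groups of barcodes, as CPM on a log axis, with the number of barcodes in parentheses. Filled points are CPM with exact Poisson 95% intervals, and open triangles mark the upper limit for groups with 0 UMIs. Mog and Mobp have 2048 and 3672 UMIs in central and 0 in peripheral barcodes, and Pmp22 and Prx are higher in peripheral barcodes.

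Mobp encodes a small basic protein of central myelin. It was at 7472 CPM (7232 to 7717) in central barcodes from 3672 UMIs, and had 0 UMIs in the 95 peripheral barcodes. The central level was therefore at least 412-fold higher, a log2 ratio of at least 8.69, which was 4.43 when the 3 barcodes with both kinds of marker were counted in both groups. A UMI of Mobp was present in 84.9% (79.2 to 89.6%) of central barcodes, while 0 of 95 peripheral barcodes allows a share of up to 3.16% (Clopper-Pearson upper limit 3.81%). Mog encodes a glycoprotein on the outermost surface of central myelin, known as an autoantigen. It stood at 4167 CPM (3989 to 4352) in central barcodes, seen in 89.9% (84.9 to 93.8%) of them, and again at 0 UMIs in peripheral barcodes, which makes it at least 230.0-fold higher, a log2 ratio of at least 7.85 that was 4.37 with the barcodes of both markers in both groups. Mog and Mobp thus marked central barcodes without a single count on the peripheral side.

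Cldn11 encodes claudin 11, which forms the tight junctions between the turns of central myelin. Its level was 7138 CPM (6904 to 7378) in central barcodes and 12.1 CPM (1.46 to 43.6) in peripheral ones, where 1 barcode held both UMIs. The log2 ratio was 9.21 (7.35 to 12.25), or 4.25 with the barcodes of both markers in both groups. Cldn11, Mobp and Mog lay at the central end of the 5011 genes, and their order cannot be told, since those of Mobp and Mog are lower bounds. In central barcodes Cldn11 was seen in 91.5% (86.7 to 94.9%).

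Mag had more counts in peripheral barcodes than these 3 genes, with 70 UMIs against 2 for Cldn11 and 0 for Mog and Mobp. Mag encodes a glycoprotein of the innermost myelin layer that faces the axon, in both central and peripheral myelin. It was at 9232 CPM (8965 to 9504) in central and 423 CPM (330 to 534) in peripheral barcodes, a log2 ratio of 4.45 (4.11 to 4.81) and a fold of 21.8. The log2 ratio was 3.45 with the barcodes of both markers in both groups and 6.44 without barcodes holding fibroblast genes. Even so, 35.8% (26.2 to 46.3%) of peripheral barcodes had a UMI of Mag, and the share expected at 1000 UMIs was 30.0%. In the peripheral barcodes chosen by Ncmap and Egfl8 together, Mag was seen in 19 of 33 and reached 902 CPM (658 to 1208), with 0 UMIs of Mog, Mobp and Cldn11. Counts of Mag in those barcodes were therefore not accompanied by the other central genes.

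**Figure D2:**
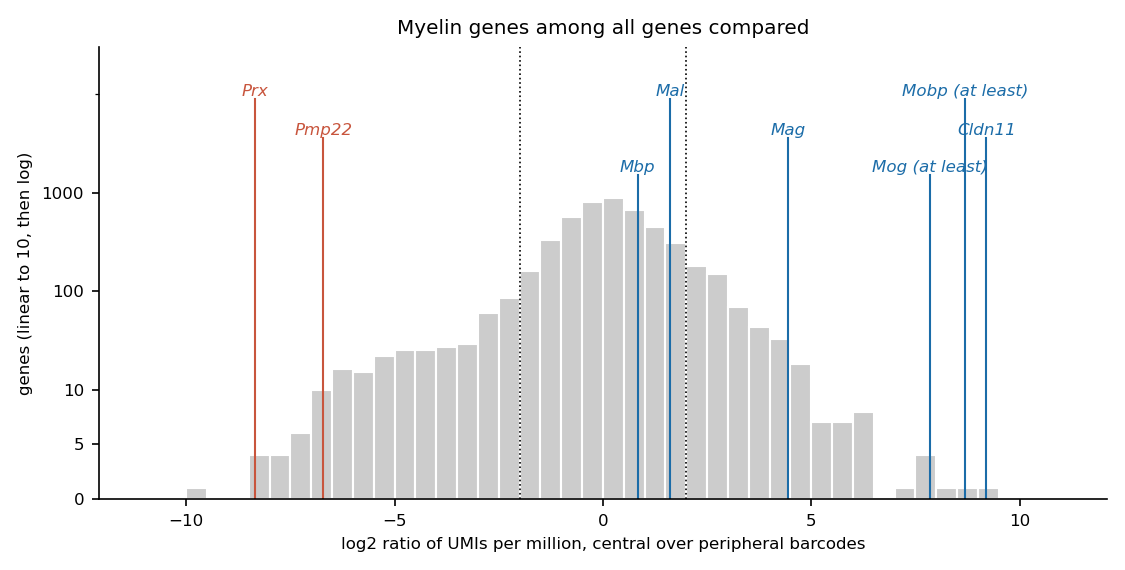
Number of genes by log2 ratio of CPM, central over peripheral barcodes, for the 5011 genes compared, with the 8 myelin genes as vertical lines and 4-fold as dotted lines. The vertical axis is linear to 10 and logarithmic above. Cldn11, Mobp and Mog lie at the central end, Prx and Pmp22 near the peripheral end, and Mbp and Mal between the dotted lines.

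The stretches of DNA just before the starts of 4 of the genes that divided between the groups are shown. Each is the 250 bases before a start in RefSeq (GRCm38.p6), 5′ to 3′ on the gene's strand. For Mobp, whose gene begins somewhat earlier in GENCODE, the 215 bases up to that point are shown, while all 250 were searched. The central genes are Mobp (chr9:120149492-120149706, plus strand), Mog (chr17:37023399-37023648, minus strand) and Mag (chr7:30914923-30915172, minus strand, the outermost of its 3 starts). The peripheral gene is Prx (chr7:27499074-27499323, plus strand). Capitals mark letters searched on both strands, which were ACAAAG (a core bound by Sox factors), CTGGCAC and CTGGTAC (forms of the Myrf motif), GCGNGGGCG (Egr factors) and TATAAA. The letters were chosen with the beginning of the Mobp stretch already seen. The central genes shown are those with a match to these letters. Cldn11 and Pmp22 also divided sharply between the groups, and their stretches were searched but are not shown.
Mobp: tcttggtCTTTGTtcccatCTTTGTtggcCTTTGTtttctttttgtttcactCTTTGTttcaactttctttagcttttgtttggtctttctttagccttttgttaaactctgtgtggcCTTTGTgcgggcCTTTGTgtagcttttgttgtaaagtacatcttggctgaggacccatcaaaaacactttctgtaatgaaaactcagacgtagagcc
Mog: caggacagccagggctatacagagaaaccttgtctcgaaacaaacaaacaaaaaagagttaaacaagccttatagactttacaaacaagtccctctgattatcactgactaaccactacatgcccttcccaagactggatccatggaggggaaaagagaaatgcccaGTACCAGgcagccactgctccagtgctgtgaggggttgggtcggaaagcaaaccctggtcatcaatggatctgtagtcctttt
Mag: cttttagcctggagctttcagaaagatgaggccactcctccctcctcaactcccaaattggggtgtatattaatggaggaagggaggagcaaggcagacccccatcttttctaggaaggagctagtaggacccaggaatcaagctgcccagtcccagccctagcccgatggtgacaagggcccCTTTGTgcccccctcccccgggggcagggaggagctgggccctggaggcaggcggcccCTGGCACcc
Prx: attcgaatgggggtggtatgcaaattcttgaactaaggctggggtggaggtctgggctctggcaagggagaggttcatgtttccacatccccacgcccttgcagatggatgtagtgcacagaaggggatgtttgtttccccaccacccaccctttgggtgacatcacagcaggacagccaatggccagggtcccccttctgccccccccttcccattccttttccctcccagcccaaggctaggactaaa

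ACAAAG occurred 6 times in the Mobp stretch, each time as its reverse complement, from 243 to 120 bases before the start. Of 32851 stretches of this length in the table, 16.5% held it at least once and 1 held it 6 times, which is that of Mobp. Since the letters were chosen with the beginning of the Mobp stretch seen, its place among all stretches is not an independent test. The Mag stretch held ACAAAG and CTGGCAC once each, 67 and 9 bases before the start, and CTGGCAC was found in 4.19% of all stretches. The Mog stretch held CTGGTAC once on the reverse strand, found in 1.83% of all stretches. No searched letters occurred in the stretch of Prx, nor in those of Pmp22 (4 starts), Mal, Cldn11 and the innermost start of Mag. These matches describe the letters only, and whether any factor binds there was not measured. In these barcodes Myrf was at 83.4 CPM in central and 0 UMIs in peripheral, and Egr2, the Schwann cell regulator of myelination, was at 14.2 CPM in central and 248 CPM in peripheral.

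Pmp22 encodes a tetraspan protein of peripheral myelin whose gene dosage is known to cause inherited neuropathy. It was at 19951 CPM (19276 to 20643) in peripheral and 191 CPM (155 to 234) in central barcodes, which is 104-fold higher in peripheral barcodes (log2 ratio -6.70, -7.02 to -6.41). A UMI of Pmp22 was found in 81.1% (71.7 to 88.4%) of peripheral and 18.1% (13.0 to 24.2%) of central barcodes, and at 1000 UMIs these shares were 75.7% and 10.9%. Counts of Pmp22 in central barcodes were low, with 94 UMIs over 36 barcodes and at most 12 in one. Of these UMIs, 67 were in the 45 central barcodes with a UMI of Klk6, a gene of mature oligodendrocytes. The Pmp22 level there was 442 CPM (343 to 561), against 79.4 CPM (52.3 to 116) in the 154 without Klk6. Barcodes with Klk6 were also deeper (median 2942 against 1726 UMIs).

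Prx encodes periaxin, a scaffold protein of the Schwann cell that links its outer membrane to the cytoskeleton. Its level was 1322 CPM (1153 to 1510) in peripheral barcodes, seen in 68.4% (58.1 to 77.6%), against 2 UMIs or 4.07 CPM (0.49 to 14.7) in central ones. The log2 ratio of -8.34 (-11.40 to -6.47) placed it 4th from the peripheral end of all genes, and Pmp22 19th, where ratios against 0 UMIs are bounds. Of all 279 UMIs of Prx in barcodes within the limits, 78.5% were in the 95 peripheral barcodes.

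Mbp encodes myelin basic protein, which compacts the cytoplasmic faces of both kinds of myelin. It reached 31506 CPM (31011 to 32006) in central and 17626 CPM (16992 to 18277) in peripheral barcodes, a fold of 1.79 (log2 ratio 0.84, 0.78 to 0.90). The gene was seen in 94.0% (89.7 to 96.8%) of central and 81.1% (71.7 to 88.4%) of peripheral barcodes. The size of this difference depended on how barcodes were chosen, and the log2 ratio ranged from 0.25 with at least 2 UMIs of the markers to 2.49 without barcodes holding fibroblast genes.

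Mal encodes a proteolipid of lipid rafts that is found in both kinds of myelin and in some epithelia. Its level was 6261 CPM (6042 to 6486) in central and 2053 CPM (1841 to 2283) in peripheral barcodes, a fold of 3.05 (log2 ratio 1.61, 1.45 to 1.77). The log2 ratio was 2.89 without barcodes holding fibroblast genes. Shares of barcodes with Mal were 86.9% (81.4 to 91.3%) and 73.7% (63.7 to 82.2%). Mal was thus present on both sides, with the higher level in central barcodes.

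**Figure D3:**
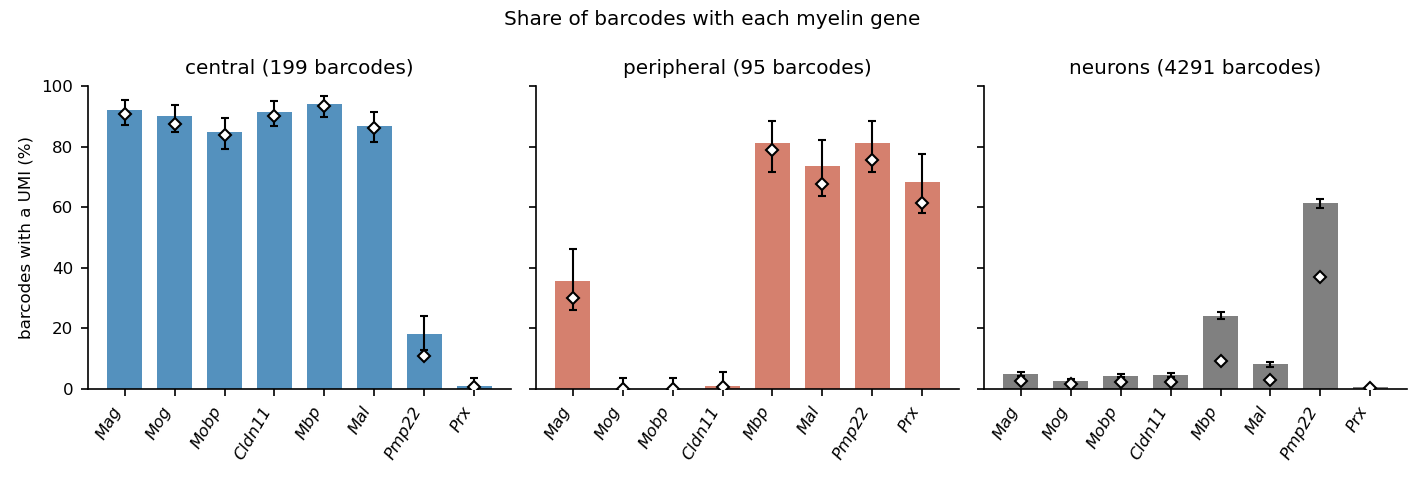
Share of barcodes with at least 1 UMI of each myelin gene in central, peripheral and neuronal barcodes, with Clopper-Pearson 95% intervals. Diamonds are the shares expected at 1000 UMIs per barcode. Central barcodes show 6 genes in 84.9% or more and peripheral barcodes show 4 genes in 68.4% or more, whereas neurons show mainly Pmp22, whose share drops from 61.3% to 36.8% at 1000 UMIs.

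Individual central barcodes mostly held the whole central set. All 6 of Mbp, Mag, Mog, Mobp, Mal and Cldn11 were seen in 163 of 199 central barcodes (81.9%), and 11 had none of them. In the 66 barcodes with Opalin and Ermn together, each of the 6 genes was present in every barcode. The 126 with Ermn alone had them in 80.2% (Mobp) to 90.5% (Mbp) of barcodes. The 7 with Opalin alone all had Mbp, Mag and Cldn11, but Mog was seen in 4 of them, Mobp in 2 and Mal in 1. The level of Mal in those 7 was 1108 CPM (657 to 1751) against 7701 CPM (7306 to 8111) with both markers.

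A similar order of genes was seen when central barcodes were divided by Apod, a gene of mature oligodendrocytes. In the 165 central barcodes with Apod (median 1990 UMIs), Mal was seen in 99.4%, Mog in 98.8% and Mobp in 94.5%. In the 34 without it (median 1676 UMIs), Mal was seen in 26.5%, Mobp in 38.2%, Mog in 47.1%, Cldn11 in 50%, Mag in 52.9% and Mbp in 64.7%. Barcodes without Apod were somewhat shallower, and 11 central barcodes had none of these 6 genes, and the part of either in these shares was not tested. With Klk6, another gene of mature oligodendrocytes, the 45 barcodes with a UMI (median 2942 UMIs) had Mal, Mog, Mag, Cldn11 and Mbp in every barcode. Mobp was the exception, seen in 84.4% of them and at 3945 CPM (3636 to 4275), against 9044 CPM (8727 to 9369) without Klk6. The Mobp level was also lower in the 74 barcodes with Enpp6, a gene of newly formed oligodendrocytes, at 5556 CPM (5267 to 5858) against 9420 CPM (9038 to 9813) in the rest. Mag was lower there as well, at 7332 CPM (6998 to 7677) against 11164 CPM (10748 to 11592), whereas Mal was at 6537 and 5980 CPM. The barcodes with Enpp6 were deeper than the rest (median 2642 and 1604 UMIs).

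Within central barcodes the CPM of Mobp and Mag moved together most closely (Spearman rho = 0.67 over 199 barcodes), followed by Mog and Cldn11 (0.59). Mal followed Mag (0.10), Mbp (0.16) and Mobp (0.17) least. In peripheral barcodes rho was between 0.63 (Mal and Prx) and 0.81 (Mbp and Pmp22) for all 6 pairs of Mbp, Pmp22, Mal and Prx over 95 barcodes. These are descriptions over barcodes of unequal depth in 1 pooled sample.

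Peripheral barcodes differed among themselves by the marker that chose them. The 33 barcodes with Ncmap and Egfl8 together had Mbp and Pmp22 in every barcode, and Mal and Prx in 32 each. Their Pmp22 level was 42737 CPM (40942 to 44591) and their Prx level 2427 CPM (2014 to 2900). With Ncmap alone (45 barcodes) Pmp22 was at 14048 CPM (13222 to 14913) and Prx at 1212 CPM (978 to 1485). With Egfl8 alone (17 barcodes) Pmp22 was at 2435 CPM (1970 to 2977), Prx at 128 CPM (41.6 to 299) and Mbp at 3589 CPM (3019 to 4235), and Prx was seen in 3 barcodes. Among these 17, the endothelial genes Cldn5 and Pecam1 were each seen in 4, against 0 of the 33 barcodes with both markers. The data thus go against the label peripheral myelinating glia for part of the barcodes with Egfl8 alone. The Egfl8 gene also overlaps Agpat1 on the other strand, and how strand was used in counting is not given in the sources used here. With Ncmap as the only peripheral marker (78 barcodes), the log2 ratio was 0.52 for Mbp and 1.29 for Mal, and the 4 central and 2 peripheral calls were kept.

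**Figure D4:**
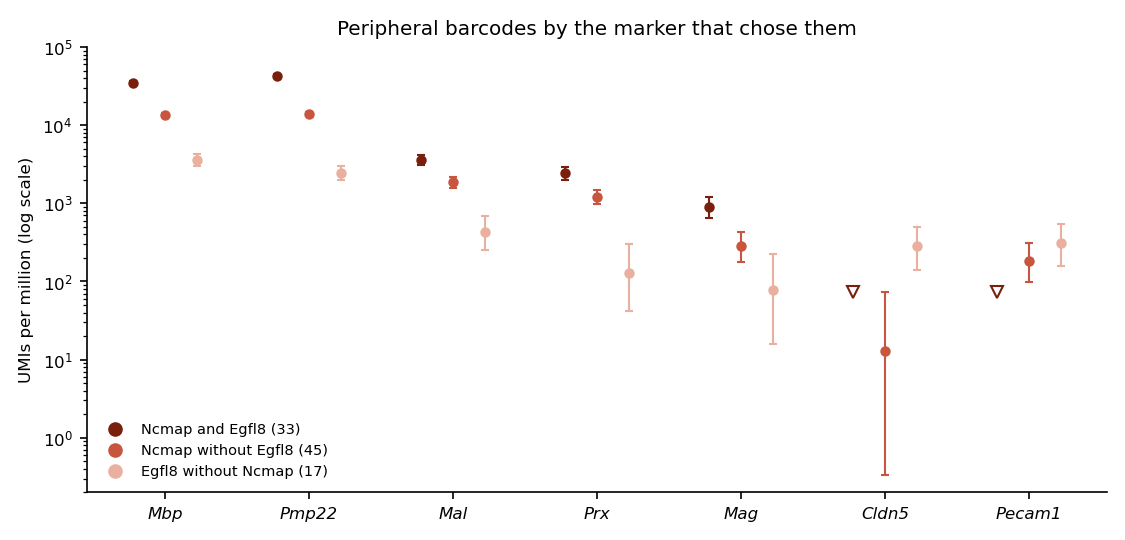
Level of 5 myelin genes and 2 endothelial genes in peripheral barcodes, by the marker that placed them in the group (number of barcodes in parentheses). Points are CPM on a log axis with exact Poisson 95% intervals, and triangles are upper limits for 0 UMIs. All 5 myelin genes are highest with both markers and lowest with Egfl8 alone, where Cldn5 and Pecam1 reach 282 and 308 CPM.

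The 18 Fabp7 barcodes had some of the shared and central genes and none of the peripheral ones. Mbp was at 7312 CPM (6352 to 8376) in 14 of 18 barcodes, Cldn11 at 738 CPM (457 to 1128) in 12 and Mag at 562 CPM (321 to 913) in 7. Mog and Mobp had 2 UMIs each. Pmp22, Mal and Prx had 0 UMIs in these 18 barcodes, which allows a share of up to 16.7% (Clopper-Pearson upper limit 18.5%). Relative to neurons, Mbp (17.6-fold), Cldn11 (9.69-fold) and Mag (6.00-fold) were at least 4-fold higher, which is 3 of 8 against a background of 8.53%. The call of Mag was lost without the deepest 10% of barcodes (log2 ratio 1.77) and with no neuronal gene allowed in glial barcodes (1.34). Against neurons without a glial marker gene the log2 ratios were 6.64 for Mbp, 6.67 for Cldn11 and 6.24 for Mag, and 5 genes passed. A count of 7 was found when the Fabp7 barcodes that also had central or peripheral markers were let in, which made 26 barcodes. Other oligodendrocyte genes were high in the 18 barcodes as well, with Bcas1 at 3796 CPM, Enpp6 at 1230 CPM and Olig1 at 1125 CPM, against 596, 360 and 661 CPM in central barcodes. Of the 13 satellite glia markers 7 had UMIs in the 18 barcodes, and the list was seen in all of them, with a sum of 2390 CPM against 1565 CPM in central barcodes. The highest of these were Dbi (1265 CPM), Ptprz1 (562 CPM against 22.4 CPM in central barcodes), Sparc (211 CPM) and Kcnj10 (176 CPM), while Apoe had 0 UMIs. With markers of both kinds of cell present, the 18 barcodes are called here by Fabp7 alone.

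The 54 other glial barcodes showed the same uneven presence. Relative to them, central barcodes were 2.47-fold higher for Mbp, 2.83-fold for Cldn11 and 4.89-fold for Mag, but 11.1-fold for Mog, 13.6-fold for Mobp and 88.2-fold for Mal, which had 7 UMIs in the other glial barcodes. For every 100 UMIs of Mbp there were 19.8 (17.2 to 22.7) of Cldn11 in other glial and 22.7 (21.8 to 23.5) in central barcodes. For Mal these ratios were 0.56 (0.22 to 1.15) and 19.9 (19.1 to 20.7), and for Mobp 4.30 (3.21 to 5.65) and 23.7 (22.9 to 24.6). The proportion of Cldn11 to Mbp was thus close to the central one, with overlapping intervals, whereas those of Mal and Mobp were far below it. Only 8 of the 54 barcodes had Mobp, and 1 of them held 33 of its 54 UMIs.

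Neurons do not make myelin, and their barcodes served as background. Of the 8 genes, 6 were at least 4-fold higher in central barcodes than in neurons (background 6.15%), with folds from 75.8 (Mbp) to 98.5 (Mag), or log2 ratios from 6.24 to 6.62. Against the 4035 neurons without a glial marker gene the log2 ratios of the same genes were higher, from 8.32 (Mal) and 8.75 (Mbp) to 10.28 (Mag) and 10.5 (Mog). Prx had only 2 UMIs in central barcodes, and Pmp22 was 3.77-fold lower there than in neurons. In peripheral barcodes 5 genes were at least 4-fold higher than in neurons (background 9.09%). These were Prx (689.6-fold), Mbp (42.4-fold), Mal (28.4-fold), Pmp22 (27.7-fold) and Mag (4.51-fold). Mag fell below 4-fold with equal weight for each barcode (log2 ratio 1.98), without the deepest 10% of barcodes (1.95) and without barcodes holding fibroblast genes (0.24), but reached 5.83 against neurons without a glial marker gene, where Mbp was at 7.91.

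Most of the central myelin RNA among neurons was in very few barcodes. The 36 neurons with at least 5 UMIs of Opalin and Ermn, 0.84% of all neurons, held 84.6% of the neuronal UMIs of Mog, 84.4% of those of Mobp, 79.8% of Mag, 78.7% of Cldn11, 68.7% of Mbp and 65.0% of Mal. Levels in those 36 barcodes (median 4950 UMIs) were close to those of central glia, with Mbp at 33444 CPM (32665 to 34237) and Mog at 4507 CPM (4224 to 4804). In the 4035 neurons without any of the 6 glial marker genes, Mag was at 7.44 CPM (6.35 to 8.67), Cldn11 at 7.26 CPM (6.18 to 8.47), Mobp at 6.67 CPM (5.64 to 7.84) and Mog at 2.89 CPM (2.22 to 3.69). In 438 barcodes with red blood cell genes, which should lack myelin RNA, Mbp was at 77.2 CPM (58.6 to 99.8), and in the 4035 neurons it was at 73.2 CPM (69.7 to 76.8). Mbp was seen in 9.36% of these red blood cell barcodes (median 1412 UMIs) and in 21.8% of the 4035 neurons (median 2883 UMIs). The pooled Mbp level of these neurons was thus close to that of red blood cell barcodes, though it differed between kinds of neuron.

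Pmp22 did not behave like the other genes in neurons. It was at 721 CPM (710 to 731) in all neurons and seen in 61.3% (59.9 to 62.8%) of them, or 36.8% at 1000 UMIs. The 4035 neurons without a glial marker held 87.7% of its neuronal UMIs and had a level of 699 CPM (688 to 710). In red blood cell barcodes it was at 33.3 CPM (21.5 to 49.1), in 4.79% of barcodes, or 3.14% at 1000 UMIs. In barcodes with no glial marker the level of Pmp22 went with the number of neuronal genes seen, from 41.0 CPM with 0 of them, 95.3 CPM with 3 and 437 CPM with 4 to 762 CPM (750 to 775) with all 6. At 1000 UMIs the share of barcodes with Pmp22 was 3.50% with 0 neuronal genes and 43.4% with 6, whereas that of Mbp was 8.77% and 6.88%. For every 100 UMIs of Mbp there were 173 of Pmp22 in all neurons and 113 in peripheral barcodes. In all neurons, however, 68.7% of the UMIs of Mbp were in the 36 barcodes with at least 5 UMIs of Opalin and Ermn. The 4035 neurons without a glial marker had 15495 UMIs of Pmp22 and 1623 of Mbp.

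The level of Pmp22 also differed between kinds of neuron, told by genes of known classes and with glial markers absent. It was highest in the 258 neurons with Cd34 or Fam19a4, genes of low-threshold C fiber touch neurons, at 2157 CPM (2093 to 2223) and in 97.7% of barcodes. The 241 neurons with the itch and pain receptor gene Mrgprd had 787 CPM (741 to 835). Neurons with Tac1 and Calca (1183 barcodes, 497 CPM, 476 to 518), with Nefh and S100b (450 barcodes, 488 CPM, 463 to 513) and with Nppb (59 barcodes, 480 CPM, 399 to 572) lay close together, and their intervals overlap. The 154 neurons with the cold receptor gene Trpm8 had the lowest level, 92.7 CPM (74.1 to 115). At 1000 UMIs the shares were 84.7% in Cd34 or Fam19a4 neurons, 54.6% in Mrgprd neurons and 8.23% in Trpm8 neurons. Median depth was 5496 UMIs in the first and 4612 in the last of these, so the order did not follow depth closely.

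Mal had a neuronal pattern of its own. In Mrgprd neurons without glial markers it was at 78.0 CPM (64.0 to 94.2) and seen in 33.6% (27.7 to 40.0%) of barcodes, or 8.19% at 1000 UMIs. Nppb neurons had 27.3 CPM from 7 UMIs, and the other 4 kinds had between 2.18 CPM (Trpm8) and 8.55 CPM (Nefh and S100b). Mbp in the same neurons was highest in those with Cd34 or Fam19a4, at 169 CPM (152 to 188), and between 30.3 and 83.6 CPM in the other kinds. The Mbp intervals of Mrgprd (21.9 to 41.0), Nppb (21.4 to 76.8) and Trpm8 neurons (31.2 to 59.4) overlap.

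**Figure D5:**
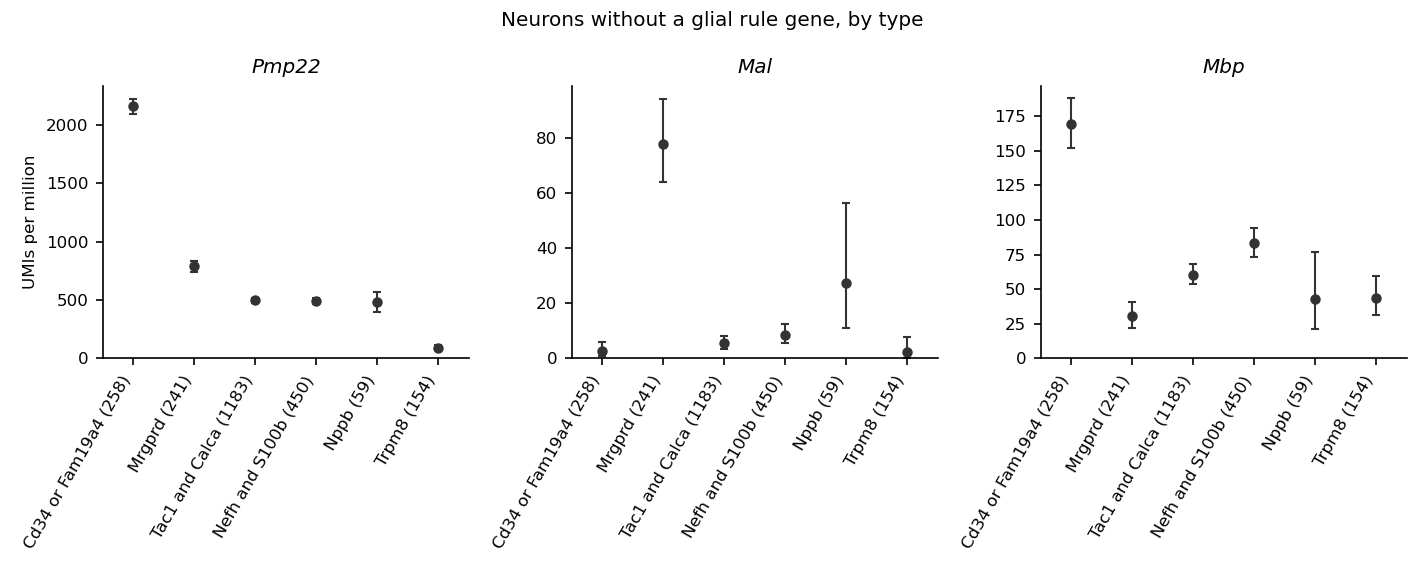
Level of Pmp22, Mal and Mbp in 6 kinds of neuron that had no UMI of a glial marker gene, as CPM on linear axes that differ between panels, with exact Poisson 95% intervals and the number of barcodes in parentheses. Pmp22 is highest in Cd34 or Fam19a4 neurons and lowest in Trpm8 neurons, and Mal is highest in Mrgprd neurons.

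The genes that divided central from peripheral barcodes most strongly belonged to several roles. On the central side Trf, Stmn4 (a regulator of microtubules), Tspan2, Enpp2 (autotaxin), Anks1b, Ptprd, Apod, Rab33a, Aplp1 and Evi2a had the largest ratios apart from the myelin genes and the markers that chose the barcodes, from 287-fold for Trf to 68.4-fold for Evi2a. All 10 had between 1 and 12 UMIs in peripheral barcodes. On the peripheral side the named genes were Utrn (utrophin), Mgp (matrix Gla protein), Ahnak, Ogn (osteoglycin), Mme (neprilysin), Cldn19, Maf, Vim (vimentin) and Prkcdbp. Ogn had 218 UMIs in peripheral and 0 in central barcodes. Over 8 groups of barcodes, the log2 level of Mog was most like that of Mobp (Pearson r = 0.99), that of Prx most like Mme and Slc36a2 (0.98 and 0.97), and that of Mbp most like the lipid enzyme genes Ugt8a and Fa2h and the kinase gene Aatk (0.98). Mag was close to Mvd and Pacs2 (0.98). Cldn11 was most like Rdh11, Hhip and Anks1b (0.98), and Mal most like Kat2b (0.98), Inf2 and Itgb4 (0.94 for each). Pmp22 had the weakest likeness, to S100a5, Maf and Hspa12a (0.90 to 0.89).

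Lipid genes had median ratios on the central side, below 4-fold. Myelin is rich in galactolipids and cholesterol. Of 7 genes of galactolipid and very long chain lipid synthesis, 3 were at least 4-fold higher in central and 0 in peripheral barcodes, with a median log2 ratio of 1.84. These were Aspa (515 against 109 CPM), Ugt8a (4198 against 960 CPM), which makes galactosylceramide, and Gal3st1 (326 against 78.5 CPM), which sulfates it. Of 17 cholesterol synthesis genes, 3 were at least 4-fold higher in central barcodes, namely Lss, Dhcr7 and Sqle, and 0 in peripheral ones, with a median of 1.56. Among all genes compared, 10.4% were at least 4-fold higher in central and 6.59% in peripheral barcodes, and the median was 0.17.

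Adhesion and junction genes and transcription factors went both ways. Of 12 adhesion and junction genes, 4 were at least 4-fold higher in central barcodes and 3 in peripheral ones (10.4% and 6.59% of all genes), with a median log2 ratio of 1.07 against 0.17 for all genes. Tspan2, Nfasc (604 against 96.6 CPM) and the connexin gene Gjb1 (698 against 54.3 CPM) were on the central side, while Cldn19, Cd9 (676 CPM in central and 5072 CPM in peripheral barcodes) and Gldn, which gathers sodium channels at peripheral nodes, were on the peripheral side. Of 10 transcription factor genes, Olig1 (661 against 24.2 CPM), Olig2 (151 CPM against 0 UMIs), Nkx6-2 (214 against 6.04 CPM) and Myrf were higher in central barcodes, and Egr2 and Pou3f1 (46.8 against 308 CPM) in peripheral ones, which is 4 and 2 of 10, with a median of 0.35. Sox10, which both kinds of glia express, was at 175 CPM in central and 127 CPM in peripheral barcodes.

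The positions of the genes were taken from GENCODE vM21 (GRCm38). Mal lies on chromosome 2 from 127633226 to 127656695, Cldn11 on chromosome 3 from 31149920 to 31164324, and Mobp on chromosome 9 from 120149707 to 120181484. Prx (27499324 to 27520214) and Mag (30899176 to 30914873) are both on chromosome 7. Pmp22 lies on chromosome 11 from 63128982 to 63159547, Mog on chromosome 17 from 37010743 to 37023398, and Mbp on chromosome 18. Prx, Mog and Mbp each overlap an annotated gene on the other strand, which are an antisense RNA, a small RNA and a pseudogene. The starts of Pmp22 cannot be told apart in these data, because Dropseq reads the 3′ ends of transcripts.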

How the data were processed

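Single cell libraries of mouse trigeminal ganglia were made by Dropseq and sequenced by the authors. The submitters' processing notes name bcl2fastq 2.17, STAR 2.5.3a, Seurat 1.4.0.16 and the mm10 build; the annotation and the strand setting are not given in the sources used here. The authors deposited 1 table of raw UMI counts for 9 libraries, in which barcodes carry no library name, and every column was used. From these counts, CPM, shares and ratios were computed by group of barcodes in Python 3.11.15 with numpy 2.4.6, scipy 1.17.1 and pandas 2.3.3, on pooled UMIs. Exact 95% intervals cover counting error only, which the 491466 UMIs of central and 165607 of peripheral barcodes limit. Barcodes with under 200 or over 8500 genes were left out. No doublet caller was run. Sets of other cells needed 2 genes of 1 marker list and at least 20 barcodes, which left red blood cell, endothelial and pituitary sets. Likeness between genes was Pearson's r of log2(CPM + 10) over 8 groups, among genes with at least 50 UMIs in glial barcodes.

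The myelin genes, the marker lists and the alternatives were chosen with earlier results of these data known. Genes named are the myelin and marker genes, up to 5 a list by size of ratio, the 10 largest ratios in each direction and the 3 genes most like each myelin gene. Some of these genes are not reported here, nor is Egfl8 as a gene most like Prx, since it chose the barcodes. Bcas1, Ptprz1, Apoe, Sparc, Kcnj10, Glul, Dbi, Col1a2, Dcn, Lum, Sox10, Cd9, Cldn5, Pecam1, Col9a3, Klk6, Enpp6 and genes of neuron types fall outside that rule or were named after their values were seen. The functions for intervals, ratios and thinning were tested on simulated data. Alternatives included other markers, depths, folds and limits.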

Additional observations from a re-analysis of the deposited data

Results flagged for a closer look

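Myelin genes also had UMIs in barcodes that no comparison used. In the 523 barcodes with under 200 genes (median 1183 UMIs), in which the hemoglobin gene Hbb-bs was at 498161 CPM, Mbp was at 91.8 CPM (70.0 to 118), Pmp22 at 41.3 CPM (27.2 to 60.1) and Mag and Mobp each at 6.12 CPM (1.67 to 15.7), from 4 UMIs each. In the 10 barcodes with over 8500 genes (median 99370 UMIs) Pmp22 was at 542 CPM (500.1 to 587.0), Mbp at 60.3 CPM (46.8 to 76.4), Mal at 10.6 CPM (5.49 to 18.6), Cldn11 at 6.20 CPM (2.49 to 12.8), Mobp at 4.43 CPM (1.44 to 10.3) and Mag at 3.54 CPM (0.97 to 9.07). All of these were singled out because they exceed the 3 UMIs that a count of 0 allows. Among barcodes that were neither glial nor neuronal, 16 had UMIs of 3 or 4 of Mag, Mog, Mobp and Cldn11 (median 1370 UMIs) but no UMI of a glial marker gene.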

How the results depend on the processing

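With all libraries pooled, leaving out a library was not possible. No paired analysis was possible because the barcodes carry no library. Of 100 counts of genes past the fold under other settings, including 4 settings chosen after seeing the data, 97 stayed within 1.5 times the main count. Part of these counts could not change, since a setting that altered 1 group left comparisons without that group as they were. The limit also let a change from 5 to 7 genes pass. Of 472 log2 ratios of single genes, 146 were counted as moved and 3 as reversed. Of 48 shares of barcodes, 22 were counted as moved. The count of genes higher in Fabp7 barcodes than in neurons was 5 with neurons defined by at least 5 neuronal genes, 5 against neurons without a glial marker gene, and 7 with Fabp7 barcodes that had central or peripheral markers let in. The number of genes seen in over 50% of neurons was 1, and 0 at 1000 UMIs and with at least 2 UMIs required. The log2 ratio of peripheral over neuronal level turned to 2.30 for Cldn11, 1.93 for Mobp and 2.15 for Mog (from at most -1.33) when barcodes with both kinds of marker were counted in both groups, and to 0.73 for Cldn11 against neurons without a glial marker gene. Central over peripheral log2 ratios ran from 0.25 to 2.49 for Mbp, from 1.09 to 2.89 for Mal, from 3.45 to 6.44 for Mag, from 4.37 to 8.14 for Mog, from 4.43 to 9.12 for Mobp, from 4.25 to 10.09 for Cldn11, from -7.76 to -5.11 for Pmp22 and from -9.26 to -5.35 for Prx. The upper ends for Mbp, Mal and Mag and the end nearest 0 for Pmp22 came from leaving out barcodes with fibroblast genes, and the lower ends for Mog, Mobp and Cldn11 from counting barcodes with both kinds of marker in both groups. Few barcodes limit the Fabp7 group (18) and the barcodes with Egfl8 alone (17).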

Other observations

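Mal had the highest level of the 8 myelin genes in the 132 barcodes with endothelial genes, where it stood at 404 CPM (326 to 495) and was seen in 34.1% (26.1 to 42.8%) of barcodes, or 25.5% at 1000 UMIs. In red blood cell barcodes it was at 46.6 CPM (32.5 to 64.8) in 1.83% of barcodes, with 26 of its 35 UMIs in 1 of them. The log2 ratio between these sets was 3.12 (2.54 to 3.72). Pmp22 was at 122 CPM (80.8 to 176) in endothelial barcodes, and Mbp at 56.5 CPM (30.1 to 96.6), near its 77.2 CPM in red blood cell barcodes. Prx had 5 UMIs in endothelial barcodes.

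The 3 glial barcodes with both central and peripheral markers had the central set of genes. Mog was at 4755 CPM (3312 to 6614) and Mobp at 8152 CPM (6221 to 10494), each in all 3 barcodes, and Pmp22 and Prx had 0 UMIs.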
